A study of Mus musculus with 6 samples.

Results

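The 7 genes followed here were the connexins *Gja1*, *Gjb6*, *Gjb1*, *Gjc3* and *Gja4*, the water channel *Aqp4* and the potassium channel *Kcnj10*. They were chosen by name as the 7 of 16411 listed genes that carry gap junctions, water and potassium in glial cells, and all 7 were in the table. The cells came from the hypothalamus of male ob/ob mice, which lack leptin. Each mouse was 11 weeks old, was housed alone, received 3 µg of FGF1 R50E icv and was killed 5 days later, and its dissociated hypothalamus gave 1 single-cell RNA-seq library (10x Genomics 3′ v2). The labels name 6 such mice. Cells of mice 3, 4, 30 and 34 were analysed, and mice 12 and 37, for which the table held no cells, were not. Every mouse carried the same mutation and the same injection, so the cells analysed here include no untreated control and give no effect of either. The comparisons are between 9 cell types, as labelled by the authors, of the same 4 mice.

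Connexins form hexameric channels that dock between neighbouring cells as gap junctions, through which ions and small metabolites pass. Astrocytes are known to use connexin 43 (*Gja1*) and connexin 30 (*Gjb6*), oligodendrocytes connexin 32 (*Gjb1*) and connexin 29 (*Gjc3*), and vessel walls connexin 37 (*Gja4*). AQP4 and the inward rectifier Kir4.1 (*Kcnj10*) are known from astrocyte endfeet, where they carry water and the potassium that active neurons release, and Kir4.1 is also known from oligodendrocytes.

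The 20151 cells held between 3005 and 7386 cells per mouse. Between 34 and 2498 cells per mouse stood behind each of 8 cell types, with 44756 to 2319177 UMIs (unique molecular identifiers, counted molecules) per mouse and type. Vascular leptomeningeal cells, 68 in all, reached 20 cells only in mouse 30. Their UMIs were pooled, and the type entered no test. The median depth per cell ran from 851 UMIs in astrocytes to 1771 UMIs in committed oligodendrocyte precursors. All 6 astrocyte, 5 ependymal, 7 oligodendrocyte, 5 endothelial and 5 microglial markers were highest in their own type, as were 4 of 5 tanycyte markers, the exception being *Scn7a*. Of 19954 cell barcodes, 194 occurred in more than 1 library. Levels are UMIs of a gene per 1000000 UMIs of the sum (CPM). They are relative, so a level says nothing of the RNA per cell, and levels of different genes are not ranked because 3′ capture differs between transcripts. The mice differed most in microglia, the type of fewest cells among the 8, where 73 to 337 of 2792 genes with a mean level of at least 50 CPM lay over 2-fold above or below the other 3 mice, with mouse 4 highest and mouse 30 next (229 genes). In the other 7 types that number was at most 79 of 3439 genes, for mouse 30 in ependymal cells.

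Microglia served as the background, since the astrocyte and oligodendrocyte members are not known as microglial genes. They still held *Gja1* at 89.4 to 223 CPM and *Gjb6* at 50.7 to 82.4 CPM in the 4 mice. The 6 astrocyte markers (*Gfap*, *Slc1a2*, *Agt*, *Aldoc*, *Slc4a4* and *Ntsr2*) likewise stood in microglia at 10.4% to 29.2% of their astrocyte level, with a median of 17.5%. Whether free RNA in the droplets gave these levels was not tested. A level within or below the microglial range was therefore read as background. By that reading *Gja1* stood above background in 3 types of 7, *Gjb6* in 1, *Gjc3* in 3, *Gjb1* in 2, *Aqp4* in 2 and *Kcnj10* in 3. These counts ask that the whole range lie above that of microglia. Set against microglia of the same mouse, *Aqp4* in tanycytes and *Kcnj10* in oligodendrocyte precursor cells were higher in 4 of 4 mice as well. For *Gjb1* the microglial range rests on 2 UMIs, so its count is weak.

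**Figure D1:**
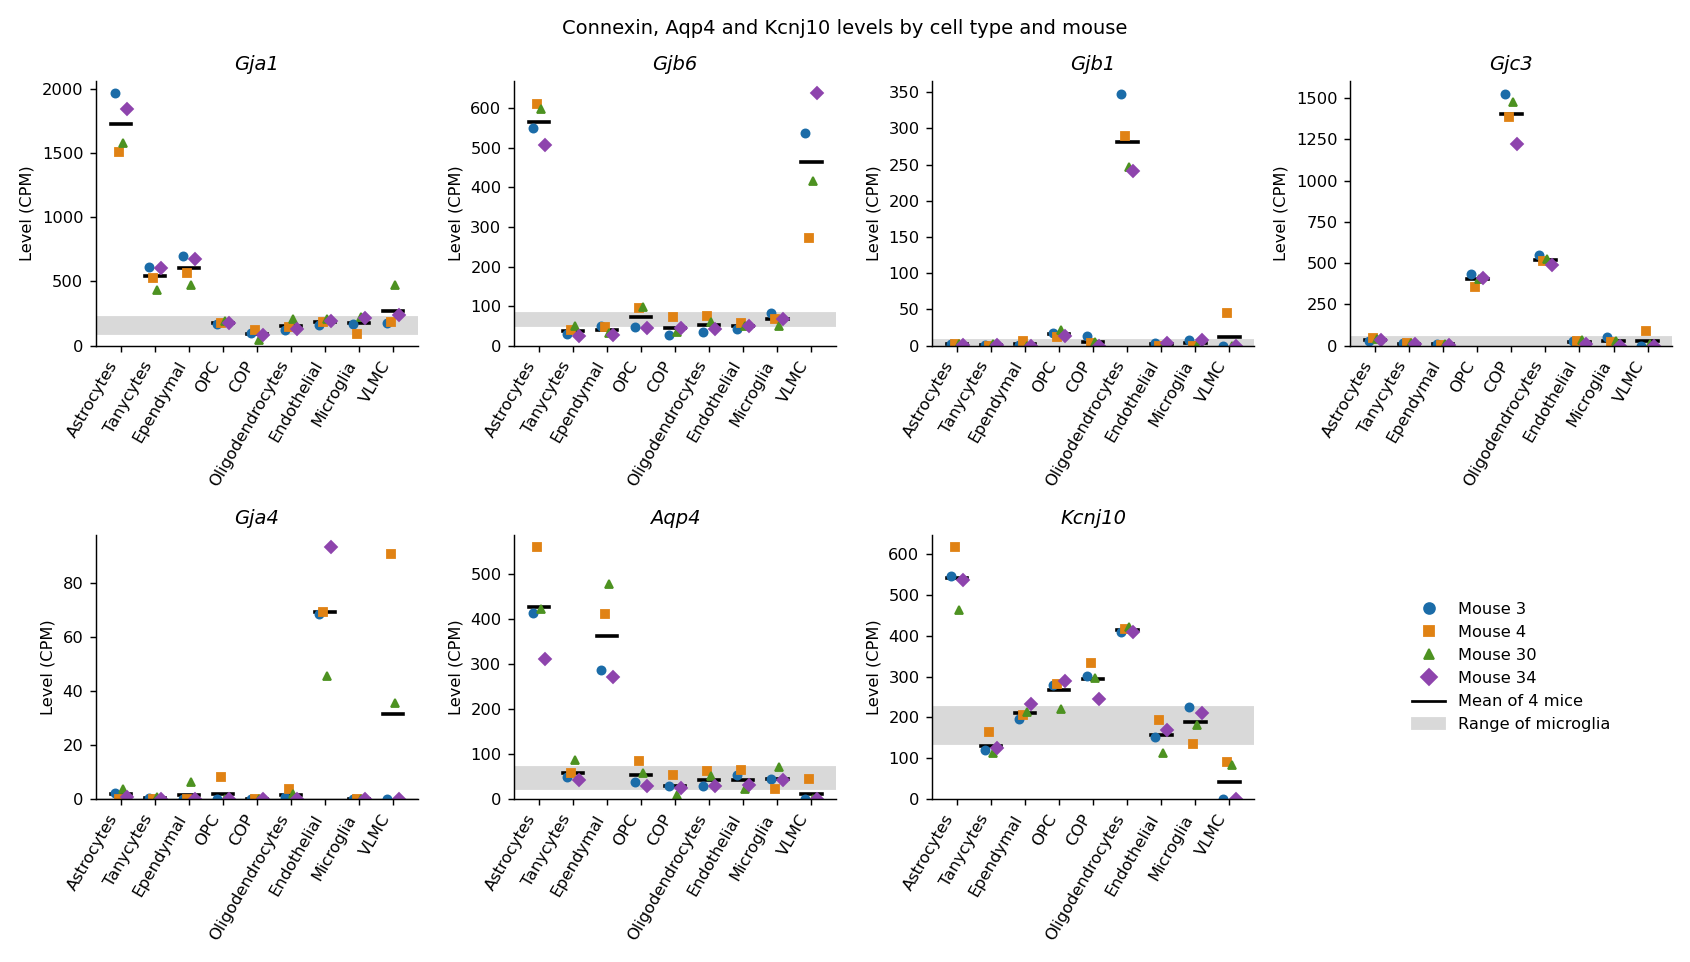
Level of each gene (y axis, CPM) in each cell type (x axis), with 1 symbol per mouse, a bar for the mean of the 4 mice and a grey band for the range of microglia. *Gja1* is highest in astrocytes (1508 to 1964 CPM), *Gjc3* in committed precursors (COP, 1224 to 1527 CPM) and *Gjb1* in oligodendrocytes (241 to 348 CPM); OPC are oligodendrocyte precursor cells, and the values of vascular leptomeningeal cells (VLMC) rest on 6 to 44 cells per mouse.

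*Gja1* lies on chromosome 10 (GRCm38, 56377330 to 56402513, plus strand) and encodes connexin 43, the main gap junction protein of astrocytes. Its level in astrocytes was 1964, 1508, 1575 and 1838 CPM in mice 3, 4, 30 and 34. Ependymal cells, the ciliated lining of the ventricle, held 702, 563, 470.4 and 674 CPM. Tanycytes, the elongated glia of the floor of the third ventricle, held 610.5, 529.7, 433 and 601 CPM. The astrocyte values lay above all others, and the ependymal and tanycyte ranges overlapped each other while lying above the microglial range in every mouse. The means were 1721 CPM ± 215 in astrocytes, 602 CPM ± 106 in ependymal cells and 544 CPM ± 82.1 in tanycytes (SD, n = 4). In oligodendrocyte precursor cells, oligodendrocytes and endothelial cells, with 120 to 205.7 CPM, *Gja1* stayed within the microglial range. After every cell was thinned to 500 UMIs, 56.7% ± 3.19 of astrocytes had a *Gja1* UMI, against 22.5% ± 3.33 of tanycytes, 23.7% ± 4.52 of ependymal cells and 6.98% ± 3.13 of microglia (SD, n = 4). Without thinning these shares were 76.6%, 43.2%, 48.9% and 14.5%, at median depths of 851, 1143, 1131 and 939 UMIs.

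*Gjb6*, on chromosome 14 (57123303 to 57133611, minus strand), encodes connexin 30, which forms astrocyte junctions beside connexin 43. It was at 550.3, 610.3, 598 and 508 CPM in the astrocytes of mice 3, 4, 30 and 34. No other type with enough cells came near: the next was oligodendrocyte precursor cells with 45.9 to 97.7 CPM, which overlapped microglia. In tanycytes *Gjb6* was at 29.5, 40.8, 50.6 and 25.2 CPM, and in ependymal cells it was at 50.1, 46.2, 31.6 and 26.5 CPM. Every one of these 8 values lay below the lowest microglial value. In tanycytes and ependymal cells *Gja1* was thus above background while *Gjb6* was not.

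The ratio of the pair can be compared between types, since the capture of each transcript cancels, though in tanycytes and ependymal cells its *Gjb6* term was itself read as background. The log2 ratio of *Gja1* to *Gjb6* UMIs was 1.60 ± 0.29 in astrocytes (1.31 to 1.86), 3.94 ± 0.67 in tanycytes (3.10 to 4.58) and 3.99 ± 0.47 in ependymal cells (3.61 to 4.67; SD, n = 4). The tanycyte and ependymal ranges overlapped each other and lay wholly above that of astrocytes. In oligodendrocyte precursor cells (0.90 to 1.93), oligodendrocytes (0.97 to 1.79) and endothelial cells (1.73 to 2.05) the ratio overlapped the astrocyte range. Both of its terms were read as background in these types, so the overlap says nothing of their own use of the pair.

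**Figure D2:**
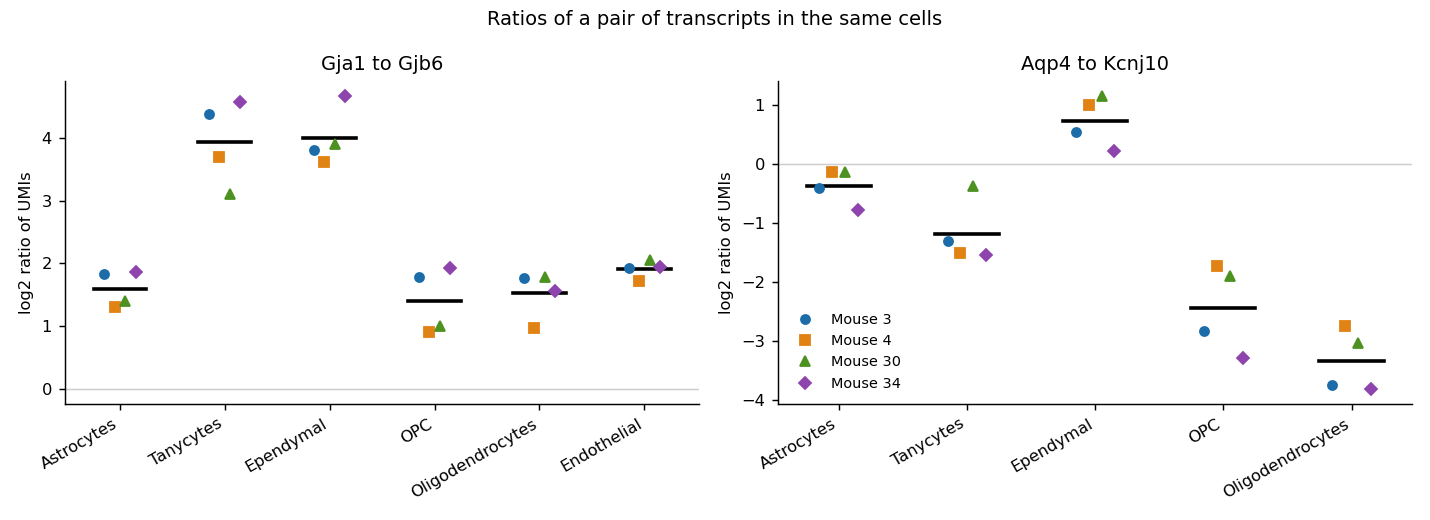
Log2 ratio of the UMIs of a pair of genes (y axis) by cell type (x axis), 1 symbol per mouse and a bar for the mean; types are shown where both genes had at least 10 UMIs in all 4 mice. *Gja1* to *Gjb6* averages 3.94 in tanycytes and 3.99 in ependymal cells against 1.60 in astrocytes, and *Aqp4* to *Kcnj10* is above 0 in all mice only in ependymal cells.

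The difference between types was then fitted over all genes, within mice. Calls needed an adjusted p under 0.05 with at least a 2-fold difference (beyond 1 on the log2 scale, either way). The labels were probably drawn from these counts, so calls describe the types. Between astrocytes and tanycytes 21.1% of 10081 genes were called, and 5 of the 7 members passed the filter on low counts. All 5 were called higher in astrocytes, in 4 of 4 mice, where 11% of all genes were called higher and 10.1% lower. *Gjb6* differed most, with a log2 fold change of 4.05 ± 0.11 (SE; adjusted p = 1.34e-26, edgeR quasi-likelihood test), followed by *Aqp4* with 2.90 ± 0.12, *Kcnj10* with 2.09 ± 0.09 and *Gja1* with 1.68 ± 0.07 (adjusted p = 5.17e-22, 1.91e-21 and 1.43e-21). The 95% intervals of *Gjb6* (3.82 to 4.28) and *Gja1* (1.54 to 1.82) did not overlap. The difference in *Gjc3*, 1.55 ± 0.21, lay between levels of 36.4 and 12.6 CPM that both fell in the microglial range.

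The comparison of astrocytes with ependymal cells called 31.8% of 8371 genes. Of the 5 members tested 4 were called higher in astrocytes, beside 14.3% of all genes. *Gjc3* was among the 4 only because it passed the filter through astrocytes, and both its levels (36.4 and 7.71 CPM) fell in the microglial range. The others included *Gjb6* with a log2 fold change of 4.01 ± 0.16 and *Gja1* with 1.63 ± 0.11 (SE; adjusted p = 3.80e-14 and 5.31e-11, edgeR quasi-likelihood test). Tanycytes against ependymal cells, with 19.8% of 8781 genes called, gave a log2 fold change in *Gja1* of -0.06 ± 0.09 (adjusted p = 0.583) and in *Gjb6* of -0.06 ± 0.21 (adjusted p = 0.844). The 95% intervals of these differences were -0.24 to 0.11 for *Gja1* and -0.48 to 0.36 for *Gjb6*.

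**Figure D3:**
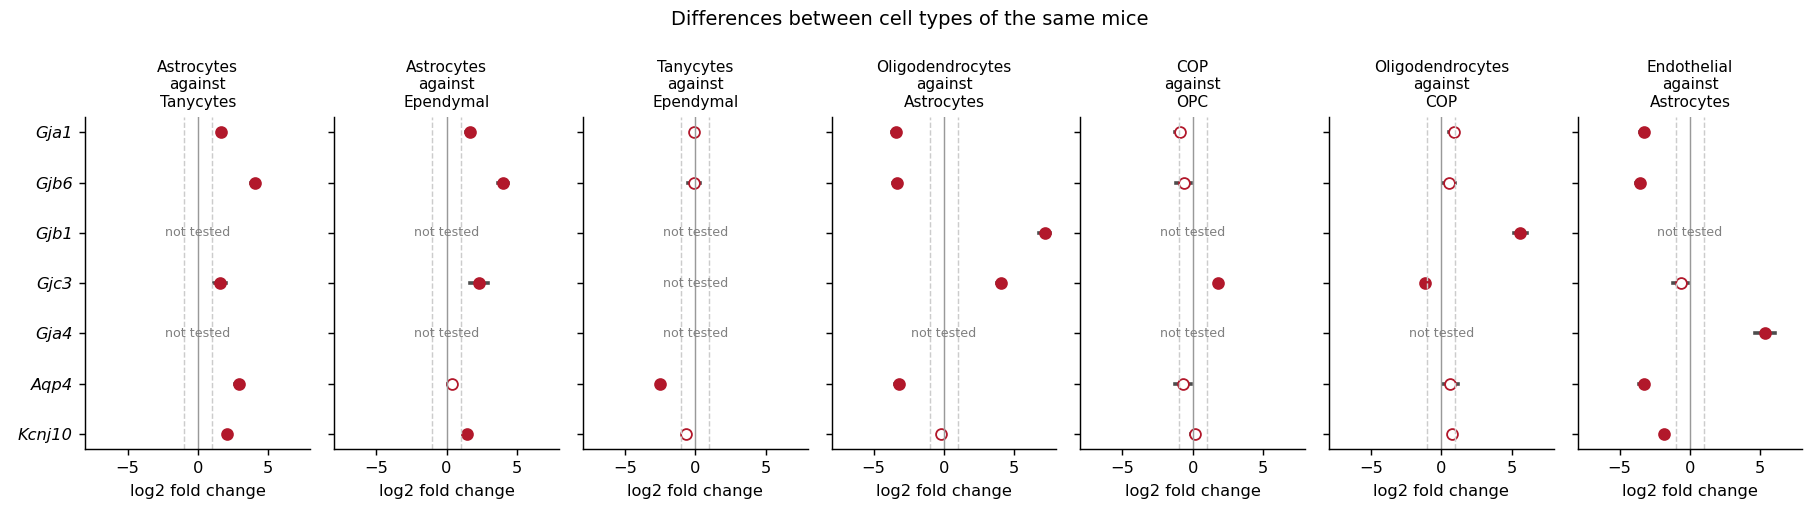
Log2 fold change (x axis) of each gene (y axis) in 7 comparisons of cell types within the same mice, the first type named minus the second, with the 95% interval as a line; filled points were called (adjusted p below 0.05 and beyond the dashed lines at -1 and 1), and genes too low to fit are marked not tested. *Gjb6* lies at 4.05 and 4.01 in the first pair of panels, *Gjb1* at 7.17 in oligodendrocytes against astrocytes and *Gja4* at 5.35 in endothelial cells against astrocytes.

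*Aqp4*, on chromosome 18 (minus strand), encodes the main water channel of the brain. A gene on the opposite strand, AC133525.2, overlaps it and was not listed in the table, and the sources used here do not give the use of strand in the counting. In astrocytes *Aqp4* was at 414, 559, 422 and 312 CPM in mice 3, 4, 30 and 34. In ependymal cells it was at 288, 410.02, 477 and 272 CPM, so that the ranges overlapped, and in mouse 30 the ependymal cells held more than the astrocytes. The log2 fold change between astrocytes and ependymal cells was 0.37 ± 0.13 (SE; 95% interval 0.10 to 0.63; adjusted p = 0.0176, edgeR quasi-likelihood test), which did not reach the limit for a call. Tanycytes held 48.7, 57.8, 87.4 and 43.1 CPM, each value above that of microglia in the same mouse but the range overlapping theirs (22.3 to 71). *Aqp4* was the only member called between tanycytes and ependymal cells, with a log2 fold change of -2.52 ± 0.11 (adjusted p = 3.61e-23, edgeR), lower in tanycytes in 4 of 4 mice, where 13.1% of all genes were called lower and 6.73% higher. The share of cells with an *Aqp4* UMI at 500 UMIs per cell was 18.9% ± 4.11 in astrocytes, 16.5% ± 4.36 in ependymal cells, 2.79% ± 0.60 in tanycytes and 2.31% ± 2.20 in microglia (SD, n = 4).

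*Kcnj10*, on chromosome 1 (172341210 to 172374085, plus strand), encodes Kir4.1, which clears potassium from the extracellular space. Its background was high: microglia held 134 to 225 CPM. Astrocytes held 545, 615, 462 and 537 CPM and oligodendrocytes 408, 417, 422 and 409.7 CPM, astrocytes being higher in every mouse. The log2 fold change of oligodendrocytes against astrocytes was -0.23 ± 0.09 (SE; adjusted p = 0.0338, edgeR quasi-likelihood test), short of a call. Ependymal cells (197 to 232 CPM), endothelial cells (114 to 195 CPM) and tanycytes (113 to 163 CPM) overlapped microglia. The ciliated ependymal cells therefore held *Aqp4* at 85.7% of the astrocyte level (69.5% to 113% in the 4 mice) but *Kcnj10* at 39.7% (33.3% to 46.1%), and microglia held *Kcnj10* at 35.4%. In log2 units the ratio of *Aqp4* to *Kcnj10* was -0.36 ± 0.31 in astrocytes, 0.73 ± 0.43 in ependymal cells, -1.18 ± 0.55 in tanycytes and -3.33 ± 0.53 in oligodendrocytes (SD, n = 4). Ependymal cells lay above astrocytes without overlap (0.23 to 1.16 against -0.78 to -0.13), while tanycytes lay below the astrocytes of the same mouse in 4 of 4 mice, with ranges that overlapped through mouse 30 (-0.37). In these ratios the *Kcnj10* term of ependymal cells and tanycytes and the *Aqp4* term of tanycytes and oligodendrocytes were themselves read as background.

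**Figure D4:**
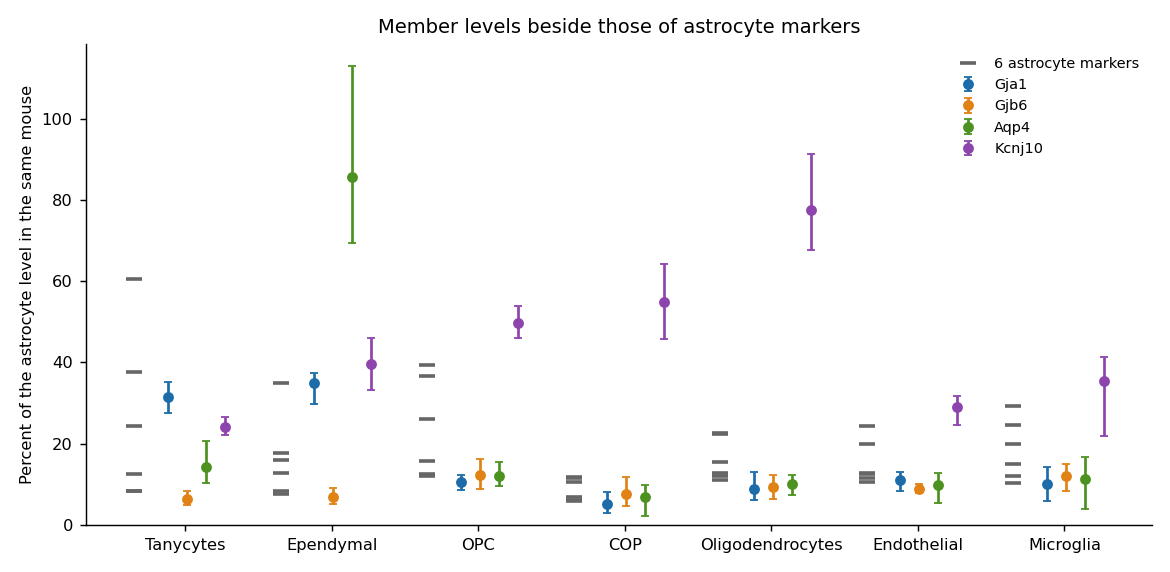
Level of 4 members in each cell type as a percent of the astrocyte level of the same mouse (y axis), with points for the mean of 4 mice, bars from the lowest to the highest mouse, and grey dashes for the means of 6 astrocyte markers. *Aqp4* in ependymal cells (85.7%) and *Kcnj10* in every plotted type but tanycytes, microglia (35.4%) included, stand above all 6 markers, while *Gjb6* in tanycytes (6.37%) and ependymal cells (6.79%) stands below all 6.

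The members were also set beside the 6 astrocyte markers. In ependymal cells the 6 markers were at 7.51% to 34.9% of their astrocyte level and *Aqp4* was at 85.7%. In oligodendrocytes they were at 11% to 22.7% and *Kcnj10* was at 77.5% (67.7% to 91.2%). *Kcnj10* also lay above all 6 markers in microglia (35.4%, the markers reaching 29.2%), ependymal cells (39.7%, reaching 34.9%) and endothelial cells (29%, reaching 24.4%), where it was read as background, so a place above the markers alone does not set *Kcnj10* apart from background. In tanycytes they spread from 8.35% for *Ntsr2* to 60.5% for *Aldoc*, and *Gja1* at 31.6% (27.5% to 35.1%) lay within that spread. *Gjb6*, at 6.37% in tanycytes and 6.79% in ependymal cells, was below every marker in either type. So were *Gjb6* in oligodendrocytes (9.27%) and endothelial cells (8.81%) and *Gja1* (8.94%) and *Aqp4* (10.03%) in oligodendrocytes, so a place below the markers does not set the ventricular types apart.

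The oligodendrocyte lineage held the other connexins, and its stages differed. *Gjc3*, on chromosome 5 (137953461 to 137963098, minus strand), encodes connexin 29, a connexin of myelinating glia. It was at 436, 353, 403 and 413 CPM in oligodendrocyte precursor cells of mice 3, 4, 30 and 34. Committed precursors, the stage between precursors and oligodendrocytes, held 1527, 1385, 1479 and 1224 CPM. In oligodendrocytes it was back at 552, 510.4, 523 and 487 CPM. The 3 ranges did not overlap, and the order held in 4 of 4 mice. Astrocytes, with 28.6 to 43.7 CPM, and every other type of enough cells overlapped microglia (0 to 52.5 CPM).

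From precursors to committed precursors *Gjc3* was 3.53-fold higher, with a log2 fold change of 1.82 ± 0.08 (SE; adjusted p = 8.55e-36, edgeR quasi-likelihood test). It was the only member called in that step, in which 24% of 4879 genes were called, 10.8% higher in committed precursors. From committed precursors to oligodendrocytes it was lower by a log2 fold change of -1.16 ± 0.08 (adjusted p = 1.75e-20), with 27.1% of 6209 genes called. At 500 UMIs per cell, 17.8% ± 1.25 of precursors, 49.4% ± 6.66 of committed precursors and 23.3% ± 2.20 of oligodendrocytes had a *Gjc3* UMI, against 0.781% ± 1.56 of microglia (SD, n = 4).

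*Gjb1*, on the X chromosome (101376378 to 101385629, plus strand), encodes connexin 32, a connexin that oligodendrocytes share with Schwann cells. Oligodendrocytes held 348, 289, 247 and 241 CPM, and 12.3% ± 1.82 of them had a UMI at 500 UMIs per cell (SD, n = 4). Committed precursors held 14, 3.40, 4.79 and 0 CPM, which is 9 UMIs in 681 cells. Earlier precursors held 17.5, 12.3, 21.2 and 13.8 CPM, from 22 UMIs in 1261 cells. The precursor range lay above that of microglia (0 to 8.42 CPM), and the committed precursor range did not. The microglial range rests on 2 UMIs in 380 cells. Pooled, the 95% intervals overlapped (10 to 24.3 CPM in precursors and 0.612 to 18.3 CPM in microglia, counting error only). These counts are therefore too few to place precursors above background. From committed precursors to oligodendrocytes the log2 fold change was 5.63 ± 0.24 (SE), higher in 4 of 4 mice. The gene passed the filter only through oligodendrocytes, so that it had to differ, and the value is given as a description with no p. It rests on those 9 UMIs: it was 6.82 without mouse 3 and 6.31 without the cells of highest doublet score.

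Between oligodendrocytes and astrocytes 30.5% of 9730 genes were called, and 6 of the 7 members passed the filter. *Gjc3* was higher in oligodendrocytes by a log2 fold change of 4.06 ± 0.13 (SE; adjusted p = 1.70e-28, edgeR quasi-likelihood test). *Gjb1* was higher by 7.17 ± 0.20, again a description, since its astrocyte value was 12 UMIs in 5909 cells and it passed the filter only through oligodendrocytes. *Gja1* (-3.45 ± 0.12), *Gjb6* (-3.34 ± 0.12) and *Aqp4* (-3.23 ± 0.12) were lower. In oligodendrocytes these 3 genes stood at background. Of all genes 12.5% were called higher and 18% lower. *Kcnj10* was the exception among the astrocyte members. It also differed along the lineage, at 221 to 289 CPM in precursors, 246 to 333 CPM in committed precursors and 408 to 422 CPM in oligodendrocytes. In precursors mouse 30 was low, at 221 CPM against 280.2 to 289 CPM in the others, but each value was above that of microglia in the same mouse. The step to oligodendrocytes had a log2 fold change of 0.76 ± 0.11 (adjusted p = 2.78e-09), higher in 4 of 4 mice but under the limit for a call, and the earlier step had 0.14 ± 0.12 (adjusted p = 0.389).

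**Figure D5:**
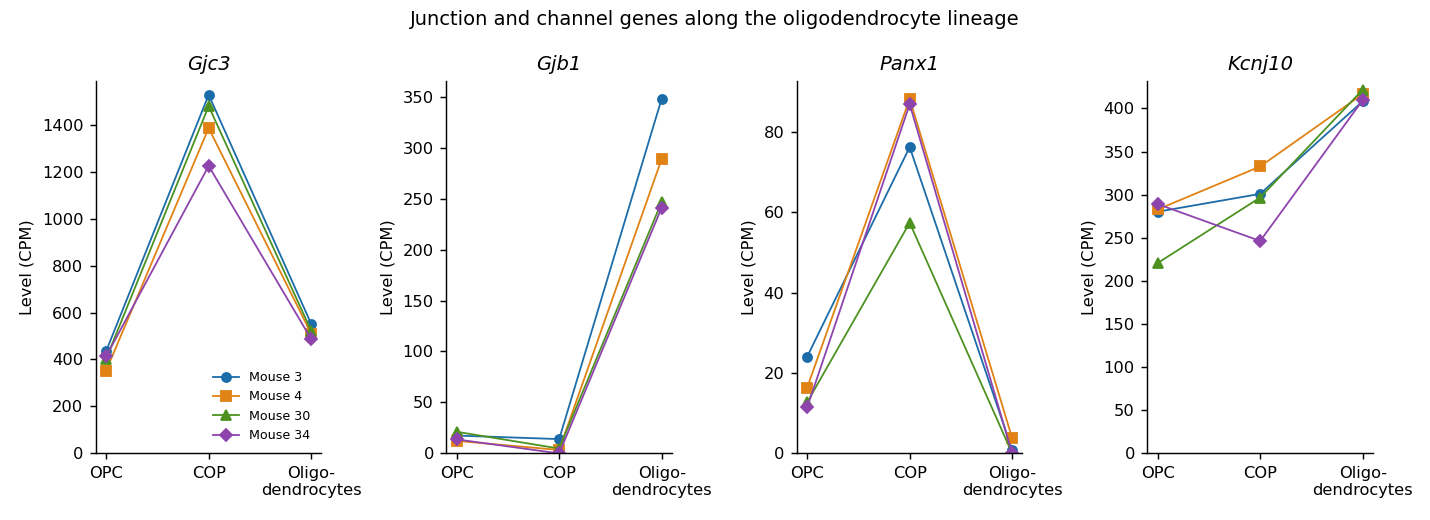
Level (y axis, CPM) of 4 genes in oligodendrocyte precursor cells (OPC), committed precursors (COP) and oligodendrocytes (x axis), with 1 line per mouse. *Gjc3* and *Panx1* peak in COP in all 4 mice (means of 1404 and 77.2 CPM), while *Gjb1* and *Kcnj10* are highest in oligodendrocytes (281 and 414 CPM).

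Other genes of the fixed lists also differed between the stages. Of 18 further connexin and pannexin genes, 6 were in the table. *Panx1*, a pannexin that forms channels in the membrane of single cells, was at 76.2, 88.3, 57.4 and 86.9 CPM in committed precursors. It was higher there than in precursors by a log2 fold change of 2.22 ± 0.30 and lower again in oligodendrocytes by -5.78 ± 0.39 (SE), given with no p because it passed the filter only through committed precursors. *Slc12a2*, which encodes the cotransporter NKCC1, was higher at each step, from a mean of 84.3 CPM to 229 and 747 CPM, with log2 fold changes of 1.50 ± 0.16 and 1.96 ± 0.11.

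The sequences before the starts of *Gjc3* and *Gjb1* are shown because they are the members of this lineage and because *Sox10*, a transcription factor of the lineage, was the gene nearest to *Gjc3* in pattern. Across 33 sums of mouse and type, the Pearson r of log2(CPM + 1) between *Gjc3* and *Sox10* was 0.95, ahead of *Ugt8a* (0.92) and *Ap2a1* (0.92) among 10842 genes. The sums share libraries and cell types, so r is a description. The 250 bases before the start, as RefSeq gives them for GRCm38.p6, are printed 5′ to 3′ on the strand of the gene. Capitals mark ACAANG, the core letters that SOX factors are known to bind, on either strand. *Gjb1* has 4 starts in that table and the one farthest downstream is shown.
Gjc3, chr5:137963099-137963348, minus strand: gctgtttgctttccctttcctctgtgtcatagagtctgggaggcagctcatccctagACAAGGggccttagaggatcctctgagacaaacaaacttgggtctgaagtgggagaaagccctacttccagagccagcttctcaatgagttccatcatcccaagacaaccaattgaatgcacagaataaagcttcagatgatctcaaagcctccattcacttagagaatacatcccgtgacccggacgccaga
Gjb1, chrX:101383482-101383731, plus strand: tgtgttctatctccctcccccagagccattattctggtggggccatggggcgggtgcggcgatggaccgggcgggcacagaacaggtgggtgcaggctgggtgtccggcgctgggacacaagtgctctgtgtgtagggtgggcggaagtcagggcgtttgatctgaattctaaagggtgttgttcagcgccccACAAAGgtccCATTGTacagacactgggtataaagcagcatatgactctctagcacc
The *Gjc3* window held 1 match, starting 193 bases before the start. The *Gjb1* window held 2 matches, starting 57 and 47 bases before the start on opposite strands. Of the other *Gjb1* starts 1 of 3 held a match. The windows of *Gja1*, *Gjb6*, *Gja4* and *Kcnj10* held none. Among all 32851 windows of that length 36.3% held at least 1, so a match is a description of these letters and not a site.

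*Gja4*, on chromosome 4 (127311421 to 127314039, minus strand), encodes connexin 37 of vessel walls. Endothelial cells held 68.5, 69.3, 45.5 and 93.2 CPM, from 125 UMIs in 1266 cells. No other type with enough cells exceeded 8.20 CPM in any mouse. Committed precursors and microglia had 0 UMIs, which allows up to 2.35 and 7.58 CPM (3 UMIs over the pooled cells, counting error only). Against astrocytes, with 9 UMIs in 5909 cells, the log2 fold change was 5.35 ± 0.35 (SE), a description as well because *Gja4* passed the filter only through endothelial cells. It was 4.21 with every sum thinned to equal totals. In that comparison 35% of 7616 genes were called, that is 17.2% higher and 17.8% lower, and *Gja1*, *Gjb6*, *Aqp4* and *Kcnj10* were lower in endothelial cells by -1.82 to -3.55. *Gjc1*, which encodes connexin 45 of vascular smooth muscle, shared the type: it was at 80.5, 152, 159 and 88.3 CPM there and at a mean of 1.88 CPM in astrocytes (6.30 ± 0.32, likewise with no p).

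Endothelial cells with a *Gja4* UMI, 102 of 1266, held other vessel wall transcripts as well. The 5 mural markers (*Rgs5*, *Vtn*, *Acta2*, *Myh11* and *Pdgfrb*, genes of pericytes and smooth muscle) summed to 7220, 6432, 5995 and 5540.02 CPM in these cells of mice 3, 4, 30 and 34. In the 1164 cells without a *Gja4* UMI they summed to 2743, 3215, 3484 and 3035 CPM, lower in each mouse and without overlap. *Acta2*, the actin of smooth muscle, was at 570.01 CPM with and 90.8 CPM without a *Gja4* UMI (109 and 136 UMIs). The 5 endothelial markers were lower in the cells with a *Gja4* UMI (5162 to 6333 CPM against 6607 to 7261), as were 3 capillary genes (169 to 469 CPM against 575 to 723), again without overlap. Summed, the 4 arterial genes were higher with a *Gja4* UMI in each mouse, with ranges that overlapped (212 to 666 CPM against 193 to 289). Singly, *Gkn3* was at 251 CPM with and 122 CPM without, *Sema3g* at 99.4 and 78.7, *Bmx* at 26.1 and 24.7, and *Efnb2* at 31.4 and 38 CPM. The 3 venous genes summed to 341 to 596 CPM with and 411 to 474 CPM without. They were higher with a *Gja4* UMI in mice 3 and 4 and lower in mice 30 and 34. The cells with a *Gja4* UMI were deeper, with a median of 1641 UMIs against 1029, and had a median doublet score of 0.067 against 0.059, and the part of either in the difference was not tested. The nearest genes to *Gja4* over the 33 sums were *Il34* (r = 0.92), *Crispld1* (0.92) and *Tbx18* (0.91), the last a known gene of mural cells. With a pseudocount of 10 in place of 1 these ranked 20, 2 and 69.

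Vascular leptomeningeal cells, fibroblast-like cells of the brain's coverings, held *Gjb6* as well. Their 68 cells had 52 *Gjb6* UMIs, or 418 CPM pooled (exact Poisson 95% interval 312 to 548, counting error only). The values were 536, 272, 416 and 638 CPM in mice 3, 4, 30 and 34, with 35 of the UMIs from the 44 cells of mouse 30. All 4 exceeded the microglial range, and the 6 astrocyte markers had a median of 11.9% of their astrocyte level in these cells. *Gja1* had 48 UMIs in these cells, or 386 CPM pooled (285 to 512), against 187 CPM pooled (147 to 235) in microglia. Of the 48 UMIs, 40 came from mouse 30. Its values of 179, 181, 475 and 239 CPM overlapped the microglial range, but each exceeded that of microglia in the same mouse. *Aqp4* had 1 UMI and *Kcnj10* had 9 UMIs in these cells. *Gjb2* (connexin 26), which lies beside *Gjb6* on chromosome 14 (57098600 to 57104702), had 36 UMIs, or 289 CPM (203 to 401). In astrocytes *Gjb2* was at 33.5, 30.8, 32 and 32.5 CPM, higher there than in tanycytes (log2 fold change 4.64 ± 0.37) and ependymal cells (3.94 ± 0.49), and lower in oligodendrocytes (-3.52 ± 0.32) and endothelial cells (-3.20 ± 0.43) than in astrocytes, given with no p because it passed the filter only through astrocytes. Microglia had no *Gjb2* UMI, which allows up to 7.58 CPM.

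Genes that work with AQP4 and Kir4.1 were taken as fixed lists. Of 11 genes that anchor the endfoot, 9 were tested between astrocytes and tanycytes. Of these 4 were called higher in astrocytes (*Dmd*, *Dag1* and *Clcn2* among them) and none lower, beside 11% and 10.1% of all genes, with a list median of 0.55 on the log2 scale against 0.01 over all genes. *Dmd*, which encodes dystrophin, of the complex that holds AQP4, was higher by 1.67 ± 0.11. Set against ependymal cells, tanycytes had 1 of the 8 endfoot genes tested called lower, *Dmd* by -1.89 ± 0.13, and 2 called higher, *Dtna* (dystrobrevin) by 1.36 ± 0.12 and *Agrn* (agrin) by 1.03 ± 0.18, beside 13.1% of all genes lower and 6.73% higher, so the share called lower was near that of all genes. The list median was 0.01 against 0.03 over all genes. *Mlc1*, at 816 CPM ± 41.4 in astrocytes (SD, n = 4), is an endfoot membrane protein, and *Hepacam* (381 CPM ± 29.2) is its binding partner. Neither was particular to astrocytes. In tanycytes and ependymal cells *Mlc1* was at 711 and 682 CPM and *Hepacam* at 262 and 304 CPM, and neither gene was called against astrocytes. Oligodendrocytes held 7 of 9 tested endfoot genes lower than astrocytes and none higher, beside 18% and 12.5% of all genes, with a list median of -1.64 against -0.01. *Hepacam* was not among the 7: it was at 264 CPM in oligodendrocytes and at 25.6 CPM in committed precursors, a log2 fold change of 3.62 ± 0.18 (SE), given with no p because it passed the filter only through oligodendrocytes.

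Of 13 genes of potassium handling 12 were in the table. Between astrocytes and tanycytes 8 were tested. Of these 5 were called higher in astrocytes, including *Kcnj16* (2.40 ± 0.12), whose product Kir5.1 assembles with Kir4.1, and the sodium pump subunit *Atp1b2* (1.95 ± 0.08). Of the 2 called lower in astrocytes, 1 was the pump subunit *Atp1b1* (-1.60 ± 0.14). Of all genes 11% were called higher and 10.1% lower, and the list median was 1.63 on the log2 scale against 0.01 over all genes. Oligodendrocytes held 5 of the 8 tested lower than astrocytes, among them *Kcnj16* (-2.35 ± 0.13), and 2 higher, among them *Slc12a2* (4.60 ± 0.13), beside 18% and 12.5% of all genes, with a list median of -2.33 against -0.01. Kir4.1's partner was thus at 174 CPM in astrocytes and at 34.2 CPM in oligodendrocytes, where *Kcnj10* itself was not called. The 5 called lower in oligodendrocytes include *Kcnk2*, at a mean of 4.18 CPM there and 30.3 CPM in astrocytes. It passed the filter only through astrocytes, so its call is a description and adds nothing to the count. Endothelial cells held *Kcnj8*, a potassium channel of pericytes, at 68.3 to 132 CPM against a mean of 0.982 CPM in astrocytes.

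Of 6 further aquaporin genes 3 were in the table. *Aqp11* was highest in endothelial cells, at 105, 126, 79.7 and 93.2 CPM, with a log2 fold change against astrocytes of 2.51 ± 0.20 (SE), given with no p because it passed the filter only through endothelial cells. *Aqp9* was at 26.3, 7.71, 6 and 16 CPM in astrocytes. Of 4 scaffold genes of cell junctions, *Cdh2* (N-cadherin) stood at 395 CPM ± 27.8 in tanycytes (SD, n = 4), above astrocytes (log2 fold change of astrocytes minus tanycytes -1.43 ± 0.09) and ependymal cells (tanycytes minus ependymal cells 2.23 ± 0.11). *Ctnnb1* and *Tjp1*, which encode beta-catenin and the scaffold ZO-1 that binds connexin 43, were highest in endothelial cells, at 557 and 383 CPM.

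The nearest genes to the other members, by the same measure with a pseudocount of 1 over 33 sums, were *Nkain4* (r = 0.93) for *Gja1*, *Mpp6* (0.89) and *Slc4a4* (0.84) for *Gjb6*, and *Cntn2* (0.90) for *Gjb1*. For *Aqp4* they were *Sorcs2* (0.90) and *Slc25a18* (0.89). For *Kcnj10* they were *Slc6a9* (0.90), *5031439G07Rik* (0.86) and *Nkx6-2* (0.86). With a pseudocount of 10 *Nkain4* ranked 2, *Slc4a4* 3 and *Sorcs2* 6, while *Slc25a18* ranked 1. *Slc25a18*, a mitochondrial glutamate carrier, shared the high ependymal level of *Aqp4*, with means of 425 CPM in astrocytes, 330.1 CPM in ependymal cells and 115 CPM in tanycytes. *Slc6a9*, a glycine transporter, shared the pair of types of *Kcnj10*, with 241 CPM in astrocytes, 142 CPM in oligodendrocytes and 22.5 CPM in tanycytes. Among the members themselves the highest r was 0.63, between *Gja1* and *Aqp4*, and that between *Gja1* and *Gjb6* was 0.59.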

How the data were processed

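Per the labels, single cells of hypothalamus were sequenced with the 10x Genomics 3′ v2 kit. The authors deposited whole-number UMI counts per gene and cell, a cell type label, a silhouette score, and a doublet score that is a fraction. Per the submitters' processing notes, Cell Ranger 1.2 and Seurat were used with GRCm38 (mm10), GRCh38 also being listed. The sources used here give neither the doublet caller nor the making of the labels. Cells held at least 487 UMIs and 396 genes. Depth-corrected counts were deposited too and were not used, since they were made over all 16 libraries, and 50172 cells of 12 libraries that are not among the labelled samples were left out.

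Raw counts were summed per mouse and type (Python 3.11.15). Each mouse is 1 replicate. With mouse as a block, p-values measure how the difference between types varies from mouse to mouse. The variance was moderated over all genes fitted, so small p-values do not rest on the spread of the 4 mice alone. In 7 contrasts edgeR 4.0.16 (R 4.3.3) fitted the sums of 2 types with mouse as a block, because both sums come from the same animal. TMM scaling, filterByExpr, the quasi-likelihood test and Benjamini-Hochberg adjustment over all genes tested were used, and SE were derived from the F statistic, with 95% intervals from its moderated degrees of freedom. The code was tested on simulated data. Shares of cells were computed after thinning each cell to 500 UMIs, which left out 1 cell, an oligodendrocyte precursor. Intervals and floors cover counting error only. Positions are from GENCODE vM21.

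Named were the 7 members, the 3 genes most like each, the 3 highest genes of each list and those a count of 5 or fewer needs; *Gjb2*, *Kcnj8*, *Kcnj16* and *Atp1b1* among the genes with values were picked after their values were seen. Some genes of the lists enter the counts but are not reported here by name. Members and lists were chosen with earlier results of these data known. Alternatives were RLE size factors, no filter, DESeq2 1.42.0, no replicate block, 1 fit over 8 types, equal totals, fewer likely doublets and each mouse left out.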

Additional observations from a re-analysis of the deposited data

Results flagged for a closer look

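Of 40 levels screened (a member in 1 type over the 4 mice, with at least 20 UMIs in all), 1 had a mouse far from the other 3. In the oligodendrocyte precursor cells of mouse 30 the level of *Kcnj10* was 221 CPM (52 UMIs), against 280.2 to 289 CPM in mice 3, 4 and 34. The gap took up 0.87 of the whole range, above Dixon's 95% critical value for 4 samples. Chance alone flags about 1 in 20 such groups.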

How the results depend on the processing

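Leaving out each mouse in turn gave 1862 to 2429 genes called between astrocytes and tanycytes (2128 with all mice), 1 to 2 members called between committed and earlier precursors (1 with all mice) and 2 to 3 between oligodendrocytes and committed precursors. The added member was *Gja1*, whose log2 fold change of -0.93 between committed and earlier precursors became -1.04 without mouse 3, -1.05 without mouse 4 and -1.07 with every sum thinned to equal totals, which gave 2 members called. Against committed precursors *Gja1* in oligodendrocytes moved from 0.89 to 1.07 without mouse 3, and to 1.02 both without mouse 4 and by DESeq2. *Gjb6* between tanycytes and ependymal cells turned from -0.06 to 0.23 without mouse 3 (adjusted p = 0.484, edgeR; -0.29 to 0.23 over the mice left out), and the cause was not tested.

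Equal totals, which leave fewer UMIs, gave 1340 genes called for astrocytes against tanycytes, 1104 for tanycytes against ependymal cells (1743 before), 1904 for oligodendrocytes against astrocytes (2969), 1024 for oligodendrocytes against committed precursors (1683) and 1448 for endothelial cells against astrocytes (2664). With no filter 2301 genes were called between committed and earlier precursors (1172 before) and 2594 between oligodendrocytes and committed precursors. One fit over 8 types gave 2132 for committed against earlier precursors. Of 402 member fold changes under an alternative, 395 kept direction and side of the limits. Without the replicate block, that is, ignoring the pairing of types by mouse, 5, 4, 1, 5, 1, 2 and 5 members were called in the order of the contrasts in the plot of fold changes, the same numbers as with it. These counts include *Gjb1*, *Gja4* and, against ependymal cells, *Gjc3*, whose calls the filter fixed and which say nothing of stability. Of 336 member levels, 334 moved by no more than 1 SD. Those with a mouse left out could not move further, since the SD was that of the same 4 mice, so they say nothing of stability. Of the settings that could move a level, the mean over cells moved 0 and kept 56. Leaving out the cells of highest doublet score moved 2 and kept 54. At 800 UMIs per cell 41 of 56 shares of cells with a UMI moved by more than 1 SD, and shares were higher except for *Gjb1* in tanycytes and endothelial cells, which fell, and *Gja4* in committed precursors and microglia, at 0 in both. With 4 mice of 1 group and labels probably made from the same counts, the fits describe these types in these mice. Microglia rest on 380 cells, so the background level is coarse: for *Gja1* it ran from 5.92% to 14.2% of the astrocyte level over the mice.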
